A study of Rattus norvegicus with 9 samples.

Results

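The 132 genes described here encode voltage-gated and potassium channel subunits and their close relatives. They were chosen by gene symbol: every Kcn potassium channel gene, the Scn sodium, Cacn calcium, Clcn chloride and Hcn pacemaker channel genes, the Trpc, Trpm and Trpv genes, and Abcc9. They were read by 186 probes, among 12167 genes and 35129 probes on the array, and 2 further probes that carried several symbols were left out. Trpc4ap came in by its name, although it encodes an adapter protein of a Trp channel and no pore. Each gene was represented by its probe with the highest mean log2 intensity, which for 84 genes was the gene's single probe.

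The study profiled oligodendrocyte progenitor cultures from newborn rats, separated into 3 surface-marker populations. O4 cells carried the O4 sulfatide epitope and lacked NG2, NG2/A2B5 cells carried both the NG2 proteoglycan and the A2B5 ganglioside epitope, and NG2 cells carried NG2. Each population was hybridised on 3 arrays, numbered I, II and III, without a treatment or an engineered allele. The series text names 3 cultures, but no label says which numeral came from which, and every p-value below reflects variation among these 9 arrays, part of which may be technical.

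Ion channels set the membrane potential and calcium entry of a cell. Oligodendrocyte progenitors are known for delayed-rectifier and A-type potassium currents and for voltage-gated sodium and calcium currents, most of which shrink as the cells mature, while inward rectifier potassium currents persist in the mature glia. A channel is usually an assembly of pore-forming subunits with accessory subunits that steer its traffic and gating, so the genes are taken below in those roles.

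The values are scaled fluorescence intensities, and the array's 25th percentile lay between 0.2047 and 0.2551 and its median between 1.0514 and 1.0673. The signal depends on the probe as well as on the transcript, so levels were not ranked between genes, and the 25th percentile was used to say which probes read above the dimmest part of an array, not as a detection limit. Of 8 measured lineage genes, Sox10, Olig1, Cspg4, Cnp, Bcas1 and Mag read above the array median on all 9 arrays, whereas the lineage factor Olig2 and the growth factor receptor gene Pdgfra read below it on every array. Cspg4, which encodes NG2, read 124.6, 92.12 and 154.1 in O4 cells, 103.9, 127.2 and 184.6 in NG2/A2B5 cells and 135.3, 145.9 and 166.4 in NG2 cells. The RNA of the O4 cells, sorted as lacking NG2, thus held Cspg4 signal. On array I it lay between the NG2/A2B5 and NG2 values of the same numeral, and on arrays II and III below both. O4 array II was the lowest of all 9 arrays. Of the lineage list 7 of 8 measured genes read above the 25th percentile on all 9 arrays, against 5 of 8 for neurons, 5 of 8 for astrocytes, 2 of 10 for microglia, 3 of 6 for endothelium and 4 of 9 for pericytes and smooth muscle. Astrocyte genes Slc1a3, Aldoc, S100b and Aqp4 and neuronal Gad1 and Elavl3 also read above the array median on all 9 arrays. So did Flt1 of the endothelium list and Anpep, Myh11 and Notch3 of the pericyte list. Of the same lists, Gfap read above the 25th percentile on 6 arrays, Gjb6 on 2, Stmn2 on 1 and Snap25 on none. The summed astrocyte intensity was 71.44 to 163.7 in O4 cells, 107.1 to 167.8 in NG2/A2B5 cells and 96.56 to 119.3 in NG2 cells. The summed microglial intensity was 7.849 to 10.77 in O4 cells, 5.691 to 7.307 in NG2/A2B5 cells and 6.102 to 7.159 in NG2 cells, most of it from Itgam, an integrin gene of myeloid cells. Itgam read 5.239 to 7.944 in O4 cells, 3.878 to 5.416 in NG2/A2B5 cells and 4.078 to 5.179 in NG2 cells, above the array median on all 9 arrays. Laptm5 read above the 25th percentile on all arrays, Csf1r on 8 and Aif1 on 7, Cx3cr1, Ptprc and Trem2 on 1 each, and C1qa, C1qb and C1qc on none. The part of other cell types in the channel values was not tested. In these bulk RNAs fewer cells of a type and less RNA per cell cannot be told apart.

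Most channel subunits read above that level. On all 9 arrays 82 of the 132 genes (62.12%) did, 44 did on 1 to 8 arrays and 6 on none, against 8899 of 12167 of all genes (73.14%) on all 9 arrays. Above the array's median on every array were 38 channel genes (28.79%), against 58.84% of all genes. Between 101 and 109 channel genes read above the 25th percentile on an O4 array, 98 to 108 on an NG2/A2B5 array and 99 to 107 on an NG2 array. The 6 that stayed under it throughout were Cacng8, Clcn4, Kcnc2, Kcnq1, Kcnt2 and Trpc7. Near the line, Kcnq3 was above it on all arrays with a lowest value of 0.2084 on NG2 array I, while Kcnj2 was under it on NG2 array III alone, with 0.2098.

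**Figure D1:**
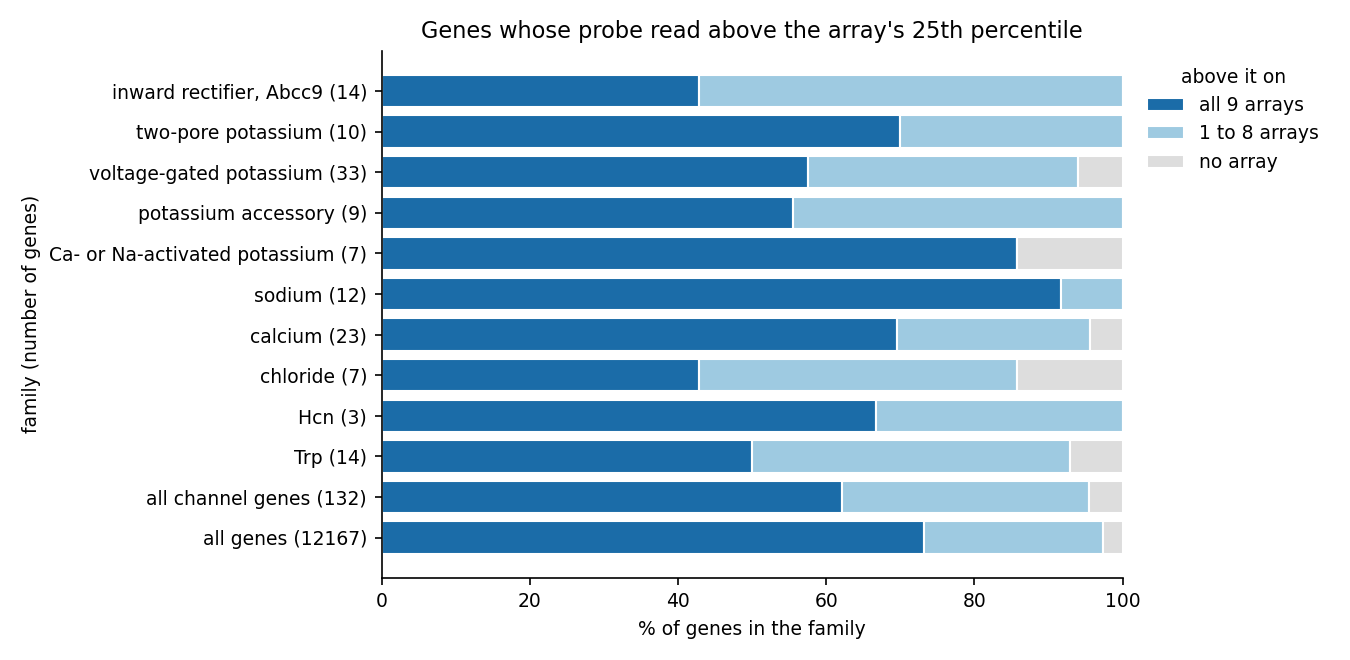
Share of the genes of each channel family (x axis, percent; family sizes in brackets) whose probe read above the array's 25th percentile on all 9 arrays, on 1 to 8 or on none. Sodium channel genes had the highest share on all 9 arrays (91.67%), and the chloride and inward rectifier families the lowest (42.86% each).

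Among the inward rectifiers, which let potassium in more easily than out, 6 of 14 genes counted with Abcc9 read above the 25th percentile on all arrays: Kcnj5, Kcnj6, Kcnj10, Kcnj11, Kcnj12 and Kcnj14. Kcnj10 encodes the channel best known for potassium uptake by glia. Its intensity was 2.644, 3.134 and 2.391 in O4 cells, 2.499, 3.42 and 2.731 in NG2/A2B5 cells and 2.405, 2.557 and 2.346 in NG2 cells. The populations overlapped, and the O4 minus NG2 log2 difference was 0.15 (95% interval -0.25 to 0.55). Kcnj16, a partner subunit of Kcnj10, read above the 25th percentile on 5 arrays. The pore genes of ATP-sensitive channels differed, with Kcnj11 above it on 9 arrays and Kcnj8 on 2, and Abcc9, the sulfonylurea receptor that pairs with Kcnj8 in vessel-wall cells, on 7. Kcnj9, a G protein-gated subunit, passed on 4, whereas its relatives Kcnj5 and Kcnj6 passed on 9. Kcnj2, a strong rectifier, read 0.4688, 0.5454 and 0.3824 in O4 cells, 0.3543, 0.4295 and 0.3452 in NG2/A2B5 cells and 0.299, 0.4436 and 0.2098 in NG2 cells, and NG2 array III was its single value under the line.

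Of the tandem-pore (K2P) genes, which carry leak current, 7 of 10 read above the 25th percentile on all arrays. These were Kcnk1, the stretch- and lipid-sensitive Kcnk2 and Kcnk10, the acid-sensitive Kcnk3, the alkali-activated Kcnk5, and Kcnk6 and Kcnk12. Kcnk9, Kcnk13 and Kcnk15 passed on 7, 2 and 6 arrays. Kcnk1 read 3.376, 3.786 and 3.345 in O4 cells, 3.262, 3.263 and 3.117 in NG2/A2B5 cells and 3.157, 3.705 and 2.905 in NG2 cells, and its O4 arrays lay just above the NG2/A2B5 arrays, with a log2 difference of 0.12 (95% interval -0.21 to 0.46). Kcnk3 read 0.7262, 0.8658 and 0.545 in O4 cells, 0.5079, 0.6869 and 0.7066 in NG2/A2B5 cells and 0.477, 0.5553 and 0.477 in NG2 cells, with overlap between the populations. Kcnk2 and Kcnk10 varied more within a population than between populations. Kcnk2 read 0.6472, 0.2805 and 0.5329 in O4 cells, 1.203, 0.2229 and 0.2307 in NG2/A2B5 cells and 0.54, 0.453 and 0.354 in NG2 cells, and Kcnk10 read 0.6692, 0.7142 and 0.7423 in O4 cells, 0.5285, 0.7973 and 0.693 in NG2/A2B5 cells and 0.4245, 1.22 and 0.9425 in NG2 cells. The I arrays were the highest for Kcnk2 and the lowest for Kcnk10.

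Of the 33 voltage-gated potassium pore and modifier genes, 19 passed on all arrays. The delayed-rectifier Kcna family had 4 of 6 members there (Kcna1, Kcna2, Kcna5 and Kcna6), and Kcna2 read 174.9, 215.2 and 217.9 in O4 cells, 188, 172.8 and 188.1 in NG2/A2B5 cells and 125.6, 211.5 and 139.8 in NG2 cells. NG2 arrays I and III were the lowest of the 9, but NG2 array II lay among the O4 values, and the O4 minus NG2 log2 difference was 0.38 (95% interval -0.12 to 0.88). Kcna1 read 29.23, 21.58 and 38.42 in O4 cells, 22.23, 35.25 and 40.66 in NG2/A2B5 cells and 31.82, 26.27 and 34.25 in NG2 cells, and Kcna5 1.419, 1.415 and 0.9428 in O4 cells, 1.612, 0.7501 and 1.209 in NG2/A2B5 cells and 1.081, 1.154 and 1.271 in NG2 cells. Kcna6 read 0.6521, 0.9257 and 0.9579 in O4 cells, 0.6566, 0.5916 and 1.192 in NG2/A2B5 cells and 1.115, 0.8307 and 1.042 in NG2 cells. None of these 3 separated the populations. The ether-a-go-go family had 7 of 8 members above the line, all but Kcnh1. Kcnd1 and Kcnd3, A-type pores, passed on all arrays and Kcnd2 on 7. The silent modifier genes, which form no channel by themselves, were split, with both Kcnv members above on all arrays but 0 of 4 Kcng and 0 of 3 Kcns members.

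Kcnd3, Kcnd2, Kcnc1, Kcnq3 and Kcnq5, other voltage-gated potassium genes with a place in progenitor physiology, overlapped between populations as well. Kcnd3 read 20.8, 20.52 and 28.18 in O4 cells, 19.16, 25.46 and 40.69 in NG2/A2B5 cells and 22.93, 19.77 and 31.12 in NG2 cells, higher on the III arrays than on the others. Kcnd2 read 0.5089, -0.0098 and 1.01 in O4 cells, 0.3487, 0.5661 and 1.215 in NG2/A2B5 cells and 0.5168, 0.1535 and 1.059 in NG2 cells. Its log2 differences between O4 cells and the other populations rest on the value set in place of the one below 0 on O4 array II. The fast-spiking pore gene Kcnc1 read 0.3033, 0.7973 and 0.9739 in O4 cells, 0.4828, 0.4485 and 0.7343 in NG2/A2B5 cells and 0.3371, 0.7748 and 0.9085 in NG2 cells. Kcnc1 was higher on the III arrays than on the I arrays in each population, with an adjusted p of 0.165 in limma's F test over numerals. The M-current pore genes Kcnq3 and Kcnq5 both read above the line on every array. Kcnq3 read 0.44, 0.3024 and 0.4734 in O4 cells, 0.3843, 0.2567 and 0.4411 in NG2/A2B5 cells and 0.2084, 0.4494 and 0.3599 in NG2 cells, and Kcnq5 read 1.588, 2.613 and 1.552 in O4 cells, 1.379, 2.108 and 2.177 in NG2/A2B5 cells and 1.82, 2.039 and 2.078 in NG2 cells. Kcnb2, Kcnh3, Kcnh4, Kcnh5, Kcnh6, Kcnh7 and Kcnh8 complete the voltage-gated genes above the line on all arrays, beside Kcnh2, described below. Kcnh3 and Kcnh2 did not overlap between O4 and NG2 cells. Kcnh3 read 0.8018 to 0.9908 in O4 cells and 1.166 to 1.28 in NG2 cells (limma adjusted p 0.666). Kcnh2 read 0.7649 to 0.8694 in O4 cells and 0.6503 to 0.7568 in NG2 cells (limma adjusted p 0.730).

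Accessory subunits passed in 5 of 9 cases: Kcnab2, Kcne2 and the calcium-binding A-type partners Kcnip1, Kcnip2 and Kcnip3. All calcium- or sodium-activated potassium genes but Kcnt2 did (6 of 7), including Kcnma1, the large-conductance pore, and its partner Kcnmb1. The others were Kcnn1, Kcnn3, Kcnn4 and the sodium-activated Kcnt1. Kcnma1 read 3.822, 3.702 and 4.849 in O4 cells, 2.666, 3.055 and 6.778 in NG2/A2B5 cells and 7.465, 5.391 and 6.966 in NG2 cells, with NG2/A2B5 array III apart from I and II and within the NG2 range. Kcnt1 read 0.6698, 0.8201 and 0.7111 in O4 cells, 0.5109, 0.6012 and 1.047 in NG2/A2B5 cells and 0.5786, 0.8037 and 0.7176 in NG2 cells, with overlap of all populations. Kcnip3, also known as a calcium-binding transcriptional repressor, read 1.364, 1.933 and 2.615 in O4 cells, 1.346, 1.357 and 2.024 in NG2/A2B5 cells and 1.521, 1.394 and 1.83 in NG2 cells, and array III was the highest in each population.

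Sodium channel genes passed in 11 of 12 cases, with Scn9a the exception on 2 arrays. The 9 pore genes included the brain forms Scn1a, Scn2a, Scn3a and Scn8a, the sodium-sensing glial form Scn7a, and Scn4a, Scn10a and Scn11a, better known from muscle and sensory neurons. All 3 beta subunit genes passed. Scn3a read 18.79, 8.925 and 25.62 in O4 cells, 15.06, 13.37 and 19.72 in NG2/A2B5 cells and 24.72, 18.2 and 38.77 in NG2 cells, and in each population array III was the highest and array II the lowest. Scn2a read 0.8481, 1.469 and 1.426 in O4 cells, 0.6609, 1.375 and 1.618 in NG2/A2B5 cells and 1.205, 1.469 and 1.673 in NG2 cells, lowest on array I in each population. Scn1a read 0.8099, 0.3828 and 0.6385 in O4 cells, 0.5522, 0.5874 and 0.7257 in NG2/A2B5 cells and 0.7898, 0.7061 and 0.6091 in NG2 cells, and Scn8a read 3.656, 4.175 and 3.126 in O4 cells, 3.933, 3.098 and 3.88 in NG2/A2B5 cells and 3.352, 3.11 and 2.907 in NG2 cells, without separation of the populations. Scn7a read 12.94, 12.17 and 9.64 in O4 cells, 7.464, 19.03 and 19.8 in NG2/A2B5 cells and 9.347, 9.605 and 10.26 in NG2 cells, so NG2/A2B5 arrays II and III were the highest of the 9 and array I of the same population the lowest. Of the beta genes, which also act in cell adhesion, Scn3b read 36.71, 24.7 and 25.69 in O4 cells, 35.94, 26.95 and 52.83 in NG2/A2B5 cells and 33.51, 35.03 and 31.96 in NG2 cells. Scn2b read 0.2954, 0.4169 and 0.4846 in O4 cells, 0.3271, 0.5364 and 0.5551 in NG2/A2B5 cells and 0.3953, 0.5976 and 0.3757 in NG2 cells, and the ranges of both genes overlapped.

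Of the 23 calcium channel genes 16 passed on all arrays. Pore genes did in 6 of 10 cases: the L-type Cacna1c and Cacna1f, the N-type Cacna1b, the R-type Cacna1e and the low-threshold Cacna1g and Cacna1h. Cacna1a and Cacna1d passed on 6 arrays each. All 3 alpha2delta genes, which raise the number of channels at the membrane, did, as did 3 of 4 beta genes and 4 of 6 gamma genes. The beta genes were Cacnb1, Cacnb3 and Cacnb4 and the gamma genes Cacng1, Cacng5, Cacng6 and Cacng7.

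Most calcium channel pore genes overlapped between populations. The L-type Cacna1c read 0.537, 0.5684 and 0.714 in O4 cells, 0.4776, 0.4411 and 0.6369 in NG2/A2B5 cells and 0.5756, 0.4805 and 0.4405 in NG2 cells. Cacna1d read 0.4416, 0.2674 and 0.6846 in O4 cells, 0.1371, 0.479 and 0.5941 in NG2/A2B5 cells and 0.2724, 0.1698 and 0.1586 in NG2 cells, above the line on all O4 arrays and on 1 NG2 array, with a log2 difference of 1.15 (SE 0.59) between these populations that did not pass. Cacna1a, the P/Q-type pore gene, read 0.2575, 0.3992 and 0.2937 in O4 cells, 0.1071, 0.2323 and 0.2158 in NG2/A2B5 cells and 0.3381, 0.27 and 0.1245 in NG2 cells, and its O4 arrays lay above the NG2/A2B5 arrays near the 25th percentile. The N-type Cacna1b read 0.9022, 0.5205 and 0.8573 in O4 cells, 1.021, 0.54 and 1.014 in NG2/A2B5 cells and 1.009, 1.358 and 0.7761 in NG2 cells. The R-type Cacna1e read 3.318, 1.613 and 3.41 in O4 cells, 2.345, 2.252 and 2.752 in NG2/A2B5 cells and 3.076, 1.687 and 3.097 in NG2 cells, lowest on array II in each population. The low-threshold genes read lower on average in O4 than in NG2 cells, with overlap: Cacna1g read 0.6761, 0.5634 and 0.7004 in O4 cells, 0.7962, 0.4407 and 0.9281 in NG2/A2B5 cells and 1.232, 0.6932 and 0.8347 in NG2 cells. Cacna1h read 0.9884, 1.162 and 1.552 in O4 cells, 1.178, 1.939 and 1.722 in NG2/A2B5 cells and 1.355, 2.645 and 2.078 in NG2 cells, a log2 difference of -0.69 (SE 0.31) that did not pass. Among the auxiliary genes, Cacna2d2 read 0.9618, 0.7228 and 0.6752 in O4 cells, 0.9518, 0.3886 and 0.8002 in NG2/A2B5 cells and 0.919, 0.8143 and 0.7606 in NG2 cells. Cacna2d3 read 0.5535, 0.7004 and 0.6403 in O4 cells, 0.4359, 0.6955 and 0.6434 in NG2/A2B5 cells and 0.4442, 0.741 and 0.7838 in NG2 cells, lowest on the I arrays. Cacnb1, the beta subunit also used by muscle, read 8.057, 9.871 and 10.76 in O4 cells, 7.15, 8.834 and 9.589 in NG2/A2B5 cells and 6.381, 8.489 and 5.687 in NG2 cells. Its O4 minus NG2 log2 difference was 0.49 (SE 0.21, adjusted p 0.624) with overlapping ranges, and a second probe gave -0.71. Cacnb3 read 12.08, 9.021 and 14.46 in O4 cells, 12.24, 10.92 and 13.8 in NG2/A2B5 cells and 13.32, 11.35 and 11.88 in NG2 cells, lowest on array II in each population. Cacng7, a regulator of AMPA receptors as well, read 0.6942, 0.7882 and 0.6975 in O4 cells, 0.5843, 0.4726 and 0.7176 in NG2/A2B5 cells and 0.7003, 0.6609 and 0.7846 in NG2 cells.

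Chloride channel genes passed in 3 of 7 cases (Clcn1, Clcn2 and Clcn3), pacemaker genes in 2 of 3 (Hcn3 and Hcn4). The volume- and voltage-sensitive Clcn2 read 2.647, 2.695 and 3.949 in O4 cells, 2.66, 4.005 and 3.906 in NG2/A2B5 cells and 3.193, 3.65 and 7.035 in NG2 cells, with NG2 array III the highest. The endosomal Clcn3 read 1.887, 1.936 and 1.288 in O4 cells, 1.573, 2.097 and 1.947 in NG2/A2B5 cells and 1.945, 1.962 and 1.354 in NG2 cells. Neither separated the populations. Hcn4 read 4.068, 5.186 and 3.95 in O4 cells, 3.459, 2.751 and 3.664 in NG2/A2B5 cells and 3.556, 4.162 and 2.715 in NG2 cells, its O4 arrays above all NG2/A2B5 arrays, with a log2 difference of 0.42 (SE 0.22, adjusted p 0.99973). Of the Trp genes 7 of 14 passed, with all 5 Trpm members and 0 of 4 Trpv members among them. Trpm7, the magnesium-permeable channel with a kinase domain of its own, read above the array median on every array, as did Trpm4, Trpc1 and Trpc4ap. Trpm1, Trpm3 and Trpm8 passed too. Trpc1, a store- and receptor-operated channel subunit, read 3.082, 4.061 and 3.624 in O4 cells, 2.278, 3.542 and 4.19 in NG2/A2B5 cells and 3.291, 3.902 and 4.038 in NG2 cells, lowest on array I in each population. Trpm4, a calcium-activated monovalent cation channel, read 3.516, 1.856 and 2.478 in O4 cells, 3.544, 2.519 and 3.398 in NG2/A2B5 cells and 2.705, 2.299 and 3.245 in NG2 cells. Trpm3 read 1.055, 0.5705 and 0.2928 in O4 cells, 0.8502, 0.4355 and 0.5168 in NG2/A2B5 cells and 0.5488, 1.231 and 0.6364 in NG2 cells, and the populations overlapped in all 3 genes.

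**Figure D2:**
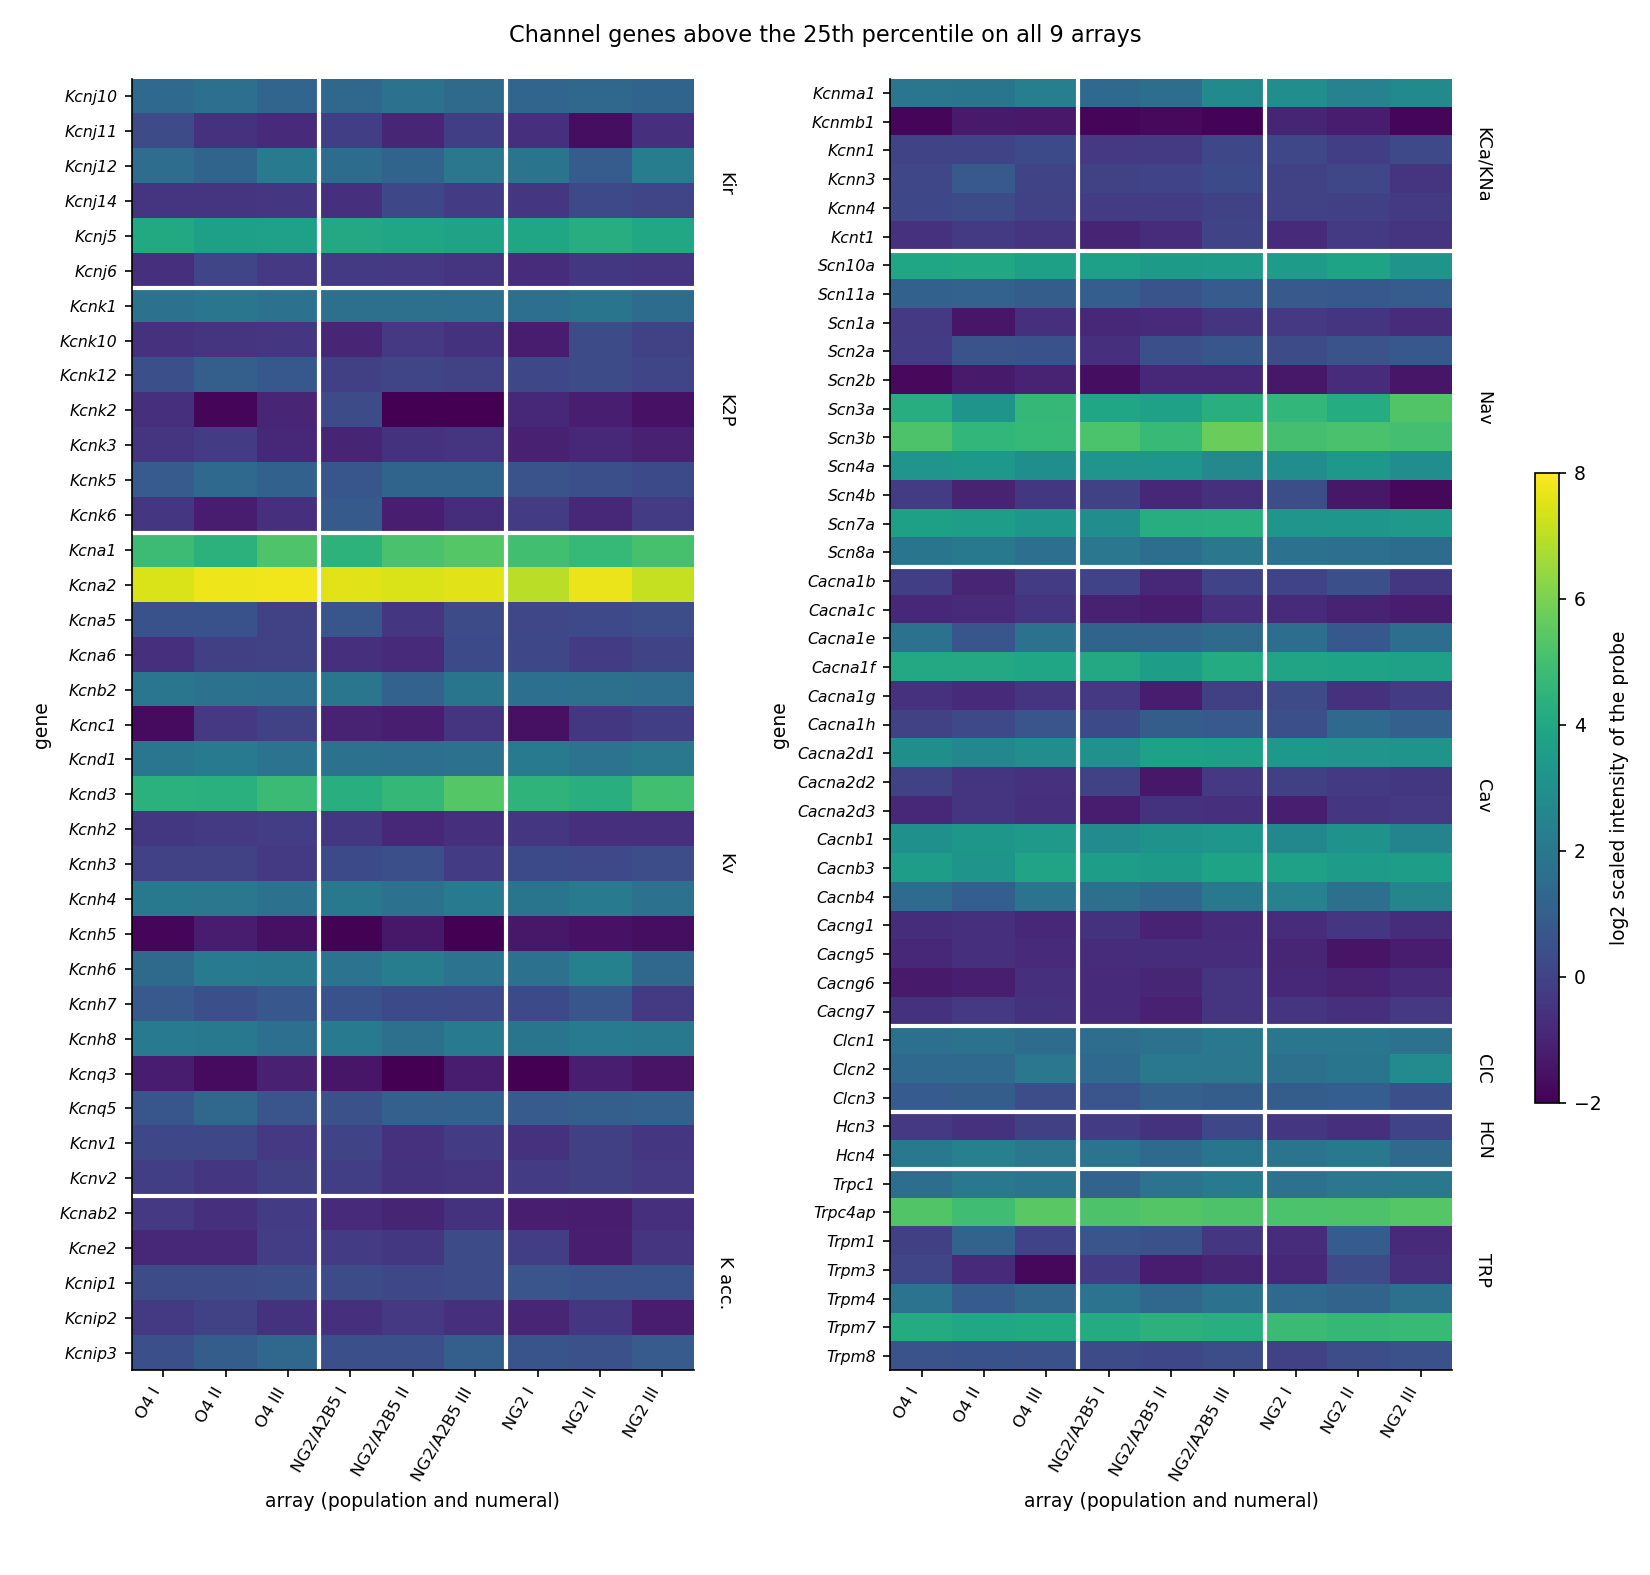
Log2 scaled intensity (colour) of the 82 channel genes above the 25th percentile on all 9 arrays (rows, by family) on each array (columns, by population and numeral). Rows were nearly even across columns compared with the differences between rows, which depend on the probe.

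The comparison of O4 with NG2 cells asked which subunits differ between the population marked by O4 and the one whose label names NG2 and no other marker. In limma no channel gene reached an adjusted p under 0.05, and 1 of 12165 genes (0.00822%) did. At an unadjusted p under 0.05 there were 10 channel genes (7.58%), against 8% of all genes. The 3 O4 arrays lay wholly to one side of the 3 NG2 arrays for 18 channel genes (13.6%), 10 higher and 8 lower in O4 cells, against 13.9% of all genes (7.46% higher and 6.49% lower), so both shares were near the background. The median log2 difference was 0.08 over the 132 genes and 0.016 over all genes, and 74 of the 132 differences were positive (56.1%, against 51.9% of all genes). Among the 82 genes above the 25th percentile on all arrays 40 were positive (48.8%, against 50.1% of all such genes), with a median of -0.0026.

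Trpm7 had the smallest p. Its intensity was 17.83, 15.92 and 16.87 in O4 cells, 17.68, 21.57 and 19.63 in NG2/A2B5 cells and 27.99, 25.29 and 26.52 in NG2 cells. All 3 NG2 arrays lay above the other 6. The O4 minus NG2 log2 difference was -0.66 ± 0.14 (SE), a ratio of 0.634, with an unadjusted p of 0.0015 and an adjusted p of 0.546. Within the numerals the difference was -0.65, -0.67 and -0.65. The numerals pair the arrays, and with them as a replicate block the lowest adjusted p of a channel gene was 0.290, so no channel gene passed. With the block and limma's trend and robust variance estimates together, 2 channel genes passed, Trpm7 (adjusted p 0.0356) and the calcium channel beta gene Cacnb4 (log2 difference -0.78, adjusted p 0.0327), that is 1.52% of the channel genes against 1.02% of all genes (124). Cacnb4 read 2.858, 1.981 and 3.492 in O4 cells against 5.391, 3.187 and 5.816 in NG2 cells, lower in O4 cells within each numeral although the ranges overlap. A second Cacnb4 probe, also above the 25th percentile on all arrays, gave an O4 minus NG2 log2 difference of the opposite sign, 0.31.

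Kcnk5 encodes a leak channel opened by alkaline pH. Its intensity was 1.824, 2.637 and 2.135 in O4 cells, 1.577, 2.323 and 2.329 in NG2/A2B5 cells and 1.47, 1.369 and 1.177 in NG2 cells. All 3 NG2 arrays lay below the other 6, and the O4 minus NG2 log2 difference was 0.71 (SE 0.22, adjusted p 0.566). The gamma subunit gene Cacng5 also had all NG2 arrays lowest, with 0.5365 to 0.6474 in O4 cells, 0.6005 to 0.6148 in NG2/A2B5 cells and 0.3633 to 0.5287 in NG2 cells. Kcnab2, a beta subunit that binds Kcna pores, read 0.7929, 0.6395 and 0.8282 in O4 cells against 0.4461, 0.4413 and 0.6348 in NG2 cells, which do not overlap (log2 difference 0.58, SE 0.21, adjusted p 0.577). Trpv2, a cation channel of the plasma membrane and endosomes, read lower in O4 cells by a log2 difference of -0.81 (SE 0.30, adjusted p 0.588), at intensities of 0.2652 to 0.4002 in O4 cells and 0.412 to 0.8262 in NG2 cells, under the array median throughout. Kcnma1 did not overlap either, at 3.702 to 4.849 in O4 cells and 5.391 to 7.465 in NG2 cells, with an adjusted p of 0.670.

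**Figure D3:**
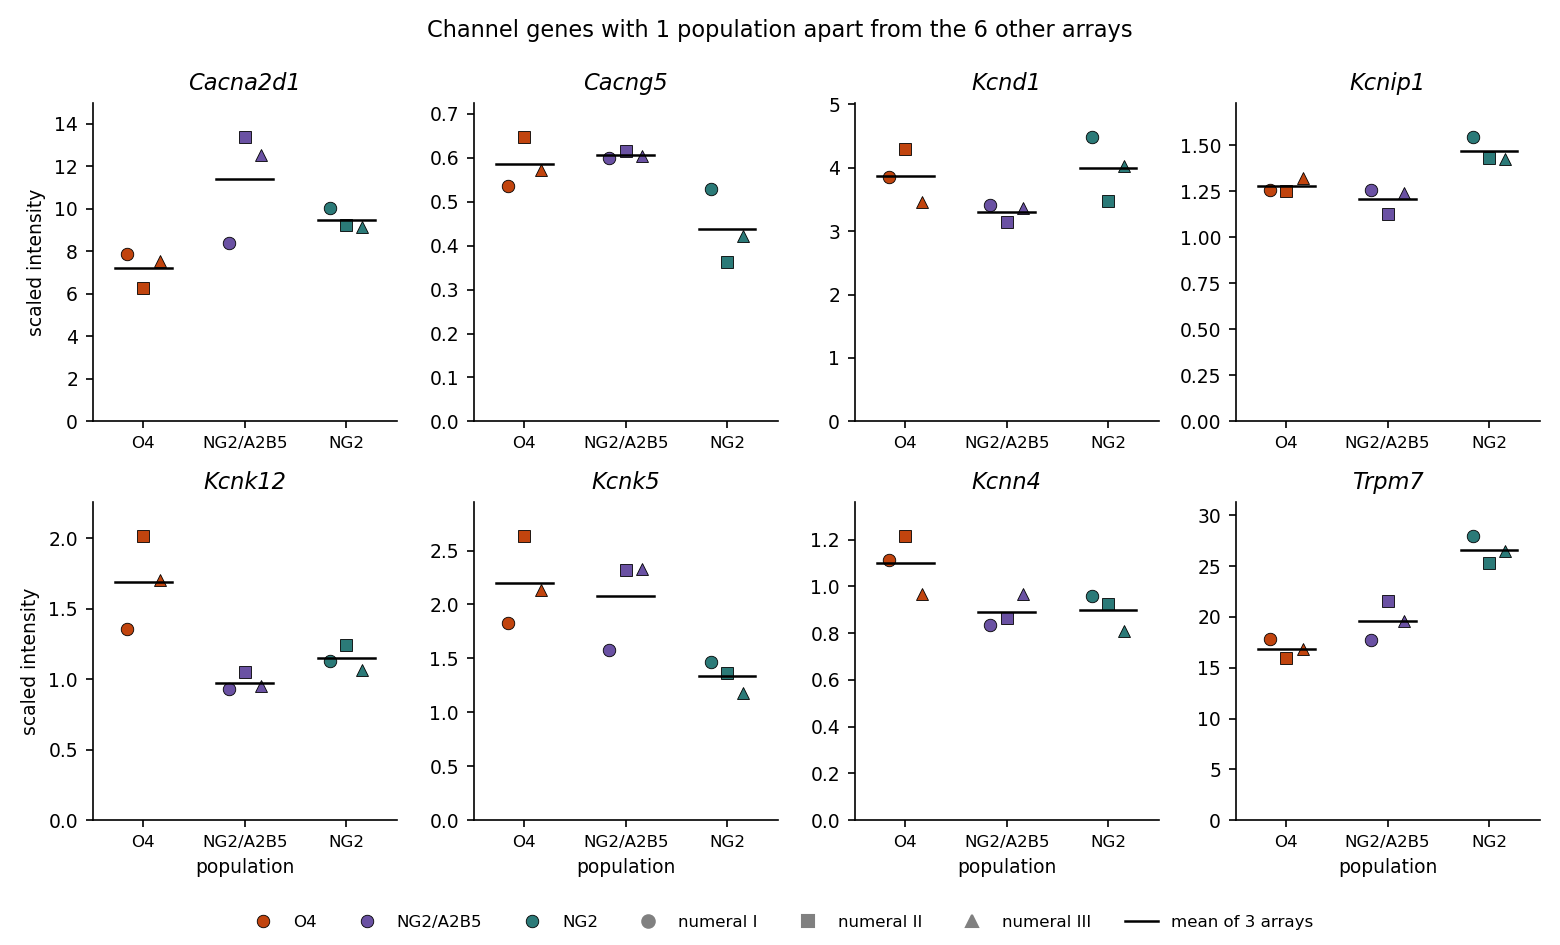
Scaled intensity (y axis, from 0) of the channel genes above the 25th percentile on all 9 arrays in which all 3 arrays of 1 population (x axis) lay outside the range of the other 6. Points are arrays, with the shape giving the numeral, and bars are means of 3; Trpm7 reads 25.29 to 27.99 in NG2 cells and at most 21.57 elsewhere.

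The comparison of O4 with NG2/A2B5 cells gave no channel gene under an adjusted p of 0.05 in limma, where 1 of 12165 genes (0.00822%) passed, and 7 (5.3%) at an unadjusted p under 0.05 against 3.28% of all genes. Among the 82 genes above the 25th percentile on all arrays the unadjusted count was 2 (2.44%), against 2.07% of all such genes. Arrays did not overlap for 15 channel genes (11.4%), 14 higher and 1 lower in O4 cells, against 8.59% of all genes (5.25% higher and 3.34% lower). Of those 15, 8 were among the 82 (9.76%, against 8.07% of all such genes). The median log2 difference was 0.11 over the 132 genes and 0.020 over all genes, with 86 differences positive (65.2%, against 53.2% of all genes). Among the 82 it was 0.085, with 50 positive (61%, against 51.7% of all such genes).

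Kcnk12, a tandem-pore subunit, read 1.356, 2.017 and 1.704 in O4 cells, 0.9276, 1.051 and 0.9491 in NG2/A2B5 cells and 1.129, 1.245 and 1.066 in NG2 cells. The 3 populations did not overlap, with O4 cells highest and NG2/A2B5 cells lowest. The O4 minus NG2/A2B5 log2 difference was 0.78 (SE 0.18, unadjusted p 0.0025, adjusted p 0.99973), positive within each numeral. Against NG2 cells it was 0.55 (SE 0.18, adjusted p 0.566).

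Cacna2d1, the alpha2delta subunit that binds gabapentin, was lower in all O4 arrays than in the other 6. It read 7.881, 6.26 and 7.545 in O4 cells, 8.375, 13.37 and 12.51 in NG2/A2B5 cells and 10.05, 9.242 and 9.158 in NG2 cells. The O4 minus NG2/A2B5 log2 difference was -0.64 (SE 0.21, adjusted p 0.99973), and -0.09, -1.10 and -0.73 within numerals I, II and III. A second probe of the gene gave -0.69 on the same scale, with 1.552, 1.592 and 1.728 in O4 cells against 1.719, 3.447 and 3.054 in NG2/A2B5 cells, where O4 array III lay just above NG2/A2B5 array I.

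Larger differences belonged to genes at low intensity. Kcna4 (log2 difference 1.07, SE 0.34), Kcng2 (1.49, SE 0.50) and Kcnj13 (1.47, SE 0.56) had unadjusted p-values of 0.0149, 0.0182 and 0.0320, each with an adjusted p of 0.99973. Cacnb2, a calcium channel beta gene, read 0.2922, 0.4262 and 0.7521 in O4 cells against 0.1114, 0.1824 and 0.2909 in NG2/A2B5 cells (log2 difference 1.33, SE 0.48, adjusted p 0.99973). The silent modifier Kcns2 read 0.2554, 0.2769 and 0.2478 in O4 cells against 0.2314, 0.0504 and 0.0805 in NG2/A2B5 cells (log2 difference 1.41, SE 0.57). Setting all values under the 25th percentile to a common floor brought the difference of Kcns2 to 0.22. Kcnn4, the intermediate-conductance calcium-activated channel, was the other gene with all O4 arrays highest, at 0.9671 to 1.216 in O4 cells, 0.8362 to 0.9667 in NG2/A2B5 cells and 0.8075 to 0.9607 in NG2 cells. Kcnh2, an ether-a-go-go family channel known from cardiac repolarisation, read 0.7649, 0.8224 and 0.8694 in O4 cells against 0.7733, 0.561 and 0.6325 in NG2/A2B5 cells, which overlap, with a log2 difference of 0.33 (SE 0.16).

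Between NG2/A2B5 and NG2 cells no channel gene and no gene of 12166 (0%) passed an adjusted p of 0.05 in limma, and 7 channel genes (5.3%) had an unadjusted p under 0.05, against 4.48% of all genes. Arrays did not overlap for 12 channel genes (9.09%), 4 higher and 8 lower in NG2/A2B5 cells, against 10.1% of all genes (5.15% higher and 4.96% lower). The median log2 difference was 0.01 over the 132 genes and -0.01 over all genes, with 68 positive (51.5%, against 48.4%). The smallest p-values belonged to Kcna4 and Trpv2, both dim. Kcna4, an A-type member of the Kcna family, read 0.2221, 0.0837 and 0.117 in NG2/A2B5 cells against 0.3276, 0.4249 and 0.3737 in NG2 cells (log2 difference -1.53, SE 0.34, adjusted p 0.862). With the common floor this difference was -0.77. Trpv2 read 0.1996, 0.302 and 0.237 in NG2/A2B5 cells against 0.5941, 0.412 and 0.8262 in NG2 cells (log2 difference -1.27, SE 0.30, adjusted p 0.862). Kcng2, a dim silent modifier, had a log2 difference of -1.50 (SE 0.50, unadjusted p 0.0178). Trpm7 (-0.44, SE 0.14), Cacng5 (0.49, SE 0.17) and Kcnk5 (0.62, SE 0.22) were the next 3 among genes above the 25th percentile on all arrays of either population, each with the NG2 arrays clear of the NG2/A2B5 arrays. These contrasts share arrays with the preceding ones and so are not separate evidence for the genes they have in common.

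Counted by population, all 3 arrays stood outside the other 6 for 2 channel genes higher in O4 cells (Kcnk12 and Kcnn4, 1.52% against 1.9% of all genes) and for 1 lower (Cacna2d1, 0.758% against 1.47%). In NG2/A2B5 cells 5 were lower (Cacnb2, Kcna4, Kcnd1, Kcng2 and Kcnk12, 3.79% against 0.881%) and 0 higher, against 0.524%. In NG2 cells 4 were higher (Kcna4, Kcnip1, Trpm7 and Trpv2, 3.03% against 1.69%) and 2 lower (Cacng5 and Kcnk5, 1.52% against 2.38%). Kcnip1, a calcium-binding partner of A-type channels, read 1.252 to 1.323 in O4 cells, 1.126 to 1.258 in NG2/A2B5 cells and 1.427 to 1.544 in NG2 cells. Of the 5 genes low in NG2/A2B5 cells, Cacnb2, Kcna4 and Kcng2 read under the 25th percentile on some arrays. So did Kcna4 and Trpv2 of the 4 genes high in NG2 cells. Among the 82 channel genes above it on all arrays, 2 stood lower in NG2/A2B5 cells (2.44%, against 0.641% of all such genes). In NG2 cells 2 of the 82 stood higher (2.44% against 1.98%).

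**Figure D4:**
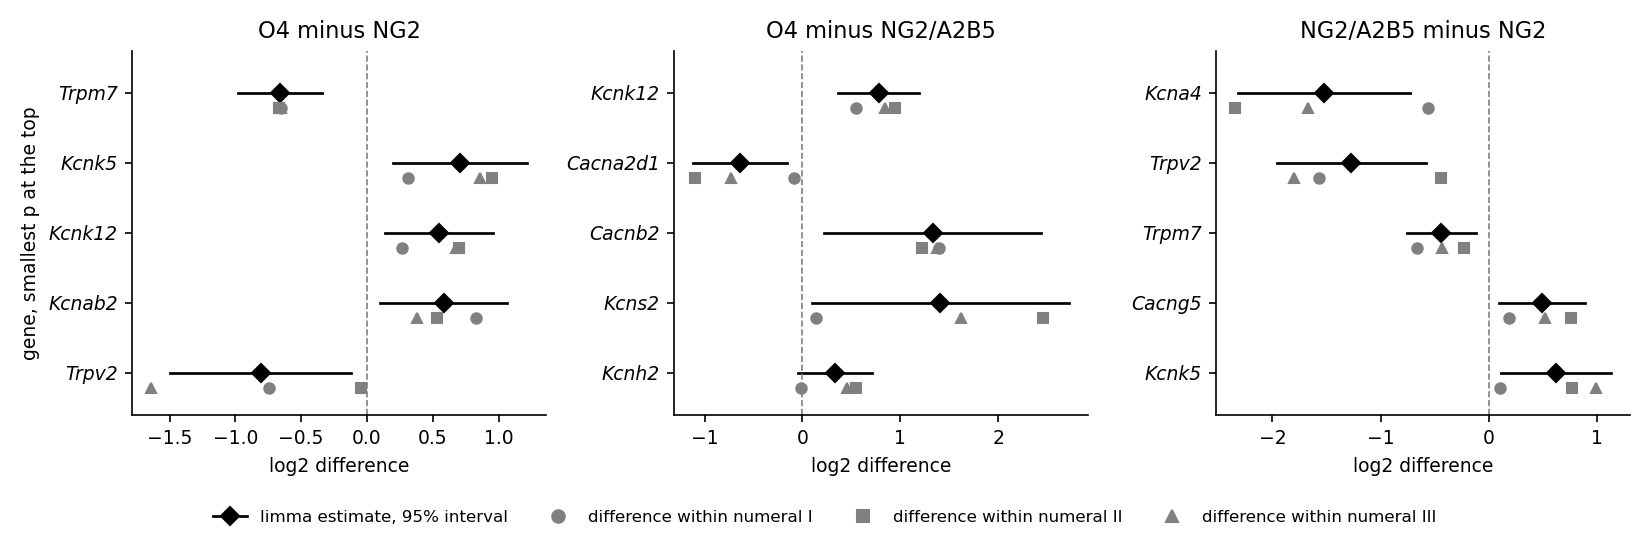
Log2 difference (x axis) with its 95% interval for the 5 channel genes with the smallest p in each comparison among those above the 25th percentile on all arrays of a compared population, and the difference within each numeral (grey). For Trpm7 in O4 minus NG2 the within-numeral points lie together at -0.65 to -0.67, whereas those of Trpv2 spread from -1.64 to -0.04. Cacnb2 and Kcns2 in O4 minus NG2/A2B5 met the level rule through O4 cells alone. Kcna4 and Trpv2 in NG2/A2B5 minus NG2 met it through NG2 cells alone. Their lower population read under the 25th percentile on some arrays, so their rank is no support for a difference.

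Promoter windows from RefSeq (build GRCr8) were found for 97 of the 132 genes. Those of Trpm7, Kcnk5 and Cacna2d1 are printed because these genes were among the smallest p-values and had 1 population outside the range of the 6 other arrays. Kcnk12 was chosen as well, but no window was found for it. The 3 printed genes read above the array median throughout. Trpm7's window is chr3:134588064-134588363 on the minus strand, that of Kcnk5 chr15:4171375-4171674 on the plus strand, and that of Cacna2d1 chr4:20330098-20330397 on the minus strand, the first of 3 listed starts. Capitals mark the GC box GGGCGG or its reverse complement CCGCCC, with overlapping matches counted.
Trpm7: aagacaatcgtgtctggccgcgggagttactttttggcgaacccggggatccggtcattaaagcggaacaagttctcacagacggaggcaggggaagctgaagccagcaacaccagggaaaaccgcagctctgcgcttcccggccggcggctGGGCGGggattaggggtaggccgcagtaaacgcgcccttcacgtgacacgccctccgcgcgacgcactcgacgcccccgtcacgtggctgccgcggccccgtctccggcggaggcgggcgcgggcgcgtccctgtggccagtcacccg
Kcnk5: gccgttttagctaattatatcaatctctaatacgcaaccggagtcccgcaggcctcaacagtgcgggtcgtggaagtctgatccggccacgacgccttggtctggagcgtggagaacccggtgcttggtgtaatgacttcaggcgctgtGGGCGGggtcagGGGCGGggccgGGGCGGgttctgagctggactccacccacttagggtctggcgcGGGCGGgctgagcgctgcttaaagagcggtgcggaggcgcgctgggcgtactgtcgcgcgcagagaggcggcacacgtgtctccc
Cacna2d1: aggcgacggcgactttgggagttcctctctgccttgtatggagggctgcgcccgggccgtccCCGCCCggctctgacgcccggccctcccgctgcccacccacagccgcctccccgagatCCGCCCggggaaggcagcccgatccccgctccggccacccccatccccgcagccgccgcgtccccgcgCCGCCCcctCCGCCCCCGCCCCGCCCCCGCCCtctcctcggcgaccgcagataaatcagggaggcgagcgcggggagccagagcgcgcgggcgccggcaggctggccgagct
The windows hold 1, 4 and 7 matches in the order printed, and 68.0%, 64.7% and 78.3% G and C. A GC box is in 48 of the 97 channel windows (49.48%) and in 34.89% of the 27457 windows of all genes, and the median G and C content was 60.7% against 52.3%. The TATA box TATAAA is in 6 channel windows (6.19% against 14.26%), the E-box CANNTG in 71 (73.2% against 71.57%), ACAAAG, a core bound by Sox factors, in 11 (11.34% against 18.34%), and TTCAGCACC, a piece of the RE1 element bound by the repressor REST, in 2 (2.06% against 0.38%), each on either strand. These are letter matches and not tested binding sites.

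Channel genes also lie in runs along the genome. By RefSeq's gene order, 32 of the 132 were direct neighbours of another member, in 14 runs. All 3 members of the run Kcna5, Kcna1 and Kcna6 read above the 25th percentile on all arrays, as did Scn3a with Scn2a, Scn2b with Scn4b, and Kcnip1 with Kcnmb1. Other runs were mixed: Kcnj10 passed on 9 arrays and its neighbour Kcnj9 on 4, Kcnj5 on 9 and Kcnj1 on 2, and Scn9a on 2 between Scn1a and Scn7a on 9 each. Among the calcium channel gamma genes, Cacng1 and Cacng5 passed on 9 arrays and Cacng4 between them on 2. Neither Kcnj8 (2 arrays) nor the adjoining Abcc9 (7 arrays) passed on all.

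A list of 88 channel partner genes, covering transporters, anchors and other channels outside the symbol rule, had 64 measured members, of which 48 read above the 25th percentile on all arrays (75.0%, against 73.14% of all genes). Both counts include Mpp2, which was read through a synonym in place of the listed Dlg2 and is not itself on the list. None had an adjusted p under 0.05 in limma in any comparison, with 2 at an unadjusted p under 0.05 in O4 minus NG2 (3.12%, against 8% of all genes) and 0 in O4 minus NG2/A2B5 and in NG2/A2B5 minus NG2, against 3.28% and 4.48% of all genes. The 2 were Pkd2, a calcium-permeable channel of the cilium and endoplasmic reticulum (log2 difference -0.70, SE 0.22, adjusted p 0.566), and Ano6, a calcium-activated channel and lipid scramblase (-0.40, SE 0.16, adjusted p 0.603). The list's median log2 difference was 0.039 in O4 minus NG2, -0.013 in O4 minus NG2/A2B5 and -0.021 in NG2/A2B5 minus NG2.

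The arrays were also compared by numeral. Over the 82 genes above the 25th percentile on all arrays, the median share of a gene's log2 variance lying between populations was 24.6% and between numerals 33.1%, against 20.9% and 40.1% over all 8899 such genes. These shares are not corrected for degrees of freedom and lie well above 0 even without any effect. They are therefore no measure of how large a population or numeral effect is. In the model with population and numeral, the F test over numerals called 0 channel genes at an adjusted p under 0.05, against 0.674% of all genes, and 22 (16.7%) at an unadjusted p under 0.05, against 21.5%. The smallest F-test p belonged to Abcc9 (adjusted p 0.0690), which read 1.265, 0.3544 and 0.3701 in O4 cells, 0.9399, 0.3801 and 0.2638 in NG2/A2B5 cells and 0.3533, 0.225 and 0.1164 in NG2 cells for numerals I, II and III. Array I was the highest within each population.

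Taken contrast by contrast, which was added after the F test was seen, III minus II had 2 channel genes higher at an adjusted p under 0.05 (1.52%, against 1.64% of all genes) and 0 lower, against 1.92% of all genes. They were Kcnj12, a strong inward rectifier (log2 difference 1.001, SE 0.17, adjusted p 0.0469), and Cacnb4 (0.78, SE 0.13, adjusted p 0.0445). The second Cacnb4 probe was higher on III than on II in O4 and NG2 cells and lower in NG2/A2B5 cells. Kcnj12 read 2.975, 2.341 and 4.417 in O4 cells, 2.878, 2.357 and 3.948 in NG2/A2B5 cells and 3.621, 1.881 and 4.769 in NG2 cells for I, II and III, and the 3 numerals did not overlap. Hcn3, a pacemaker channel gene, showed the same separation, with 0.7552 to 0.8602 on the I arrays, 0.6612 to 0.6905 on the II arrays and 0.9366 to 1.13 on the III arrays. Scn3a had a III minus II log2 difference of 1.06 (SE 0.22, adjusted p 0.0645) and missed the threshold. II minus I and III minus I had 0 channel genes under it.

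Counted by numeral, the I arrays stood outside the other 6 for 3 channel genes higher (Cacna2d2, Kcnk2 and Scn4b, 2.27% against 1.3% of all genes) and 5 lower (Cacna2d3, Kcnj9, Kcnk10, Scn2a and Trpc1, 3.79% against 2.2%). The II arrays did so for 5 higher (Kcnh6, Kcnq1, Kcnt2, Scn4a and Trpv6, 3.79% against 8.18%), and for 5 lower (Cacna1e, Cacnb3, Hcn3, Kcnj12 and Kcnk6, 3.79% against 3.91%). Of the 5 higher, Kcnq1 and Kcnt2 read above the 25th percentile on no array and Trpv6 on 7. The III arrays did so for 6 higher (Cacng6, Hcn3, Kcnd2, Kcnd3, Kcnj12 and Kcnn1, 4.55% against 4.53%) and for 1 lower, Kcne4 (0.758% against 4.43%). Scn2a, a brain sodium channel pore, read 0.8481, 0.6609 and 1.205 on the I arrays of the O4, NG2/A2B5 and NG2 cells, and 1.375 or more on the 6 other arrays. Kcnd3, an A-type pore, read 28.18, 40.69 and 31.12 on the III arrays of the O4, NG2/A2B5 and NG2 cells and at most 25.46 elsewhere.

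**Figure D5:**
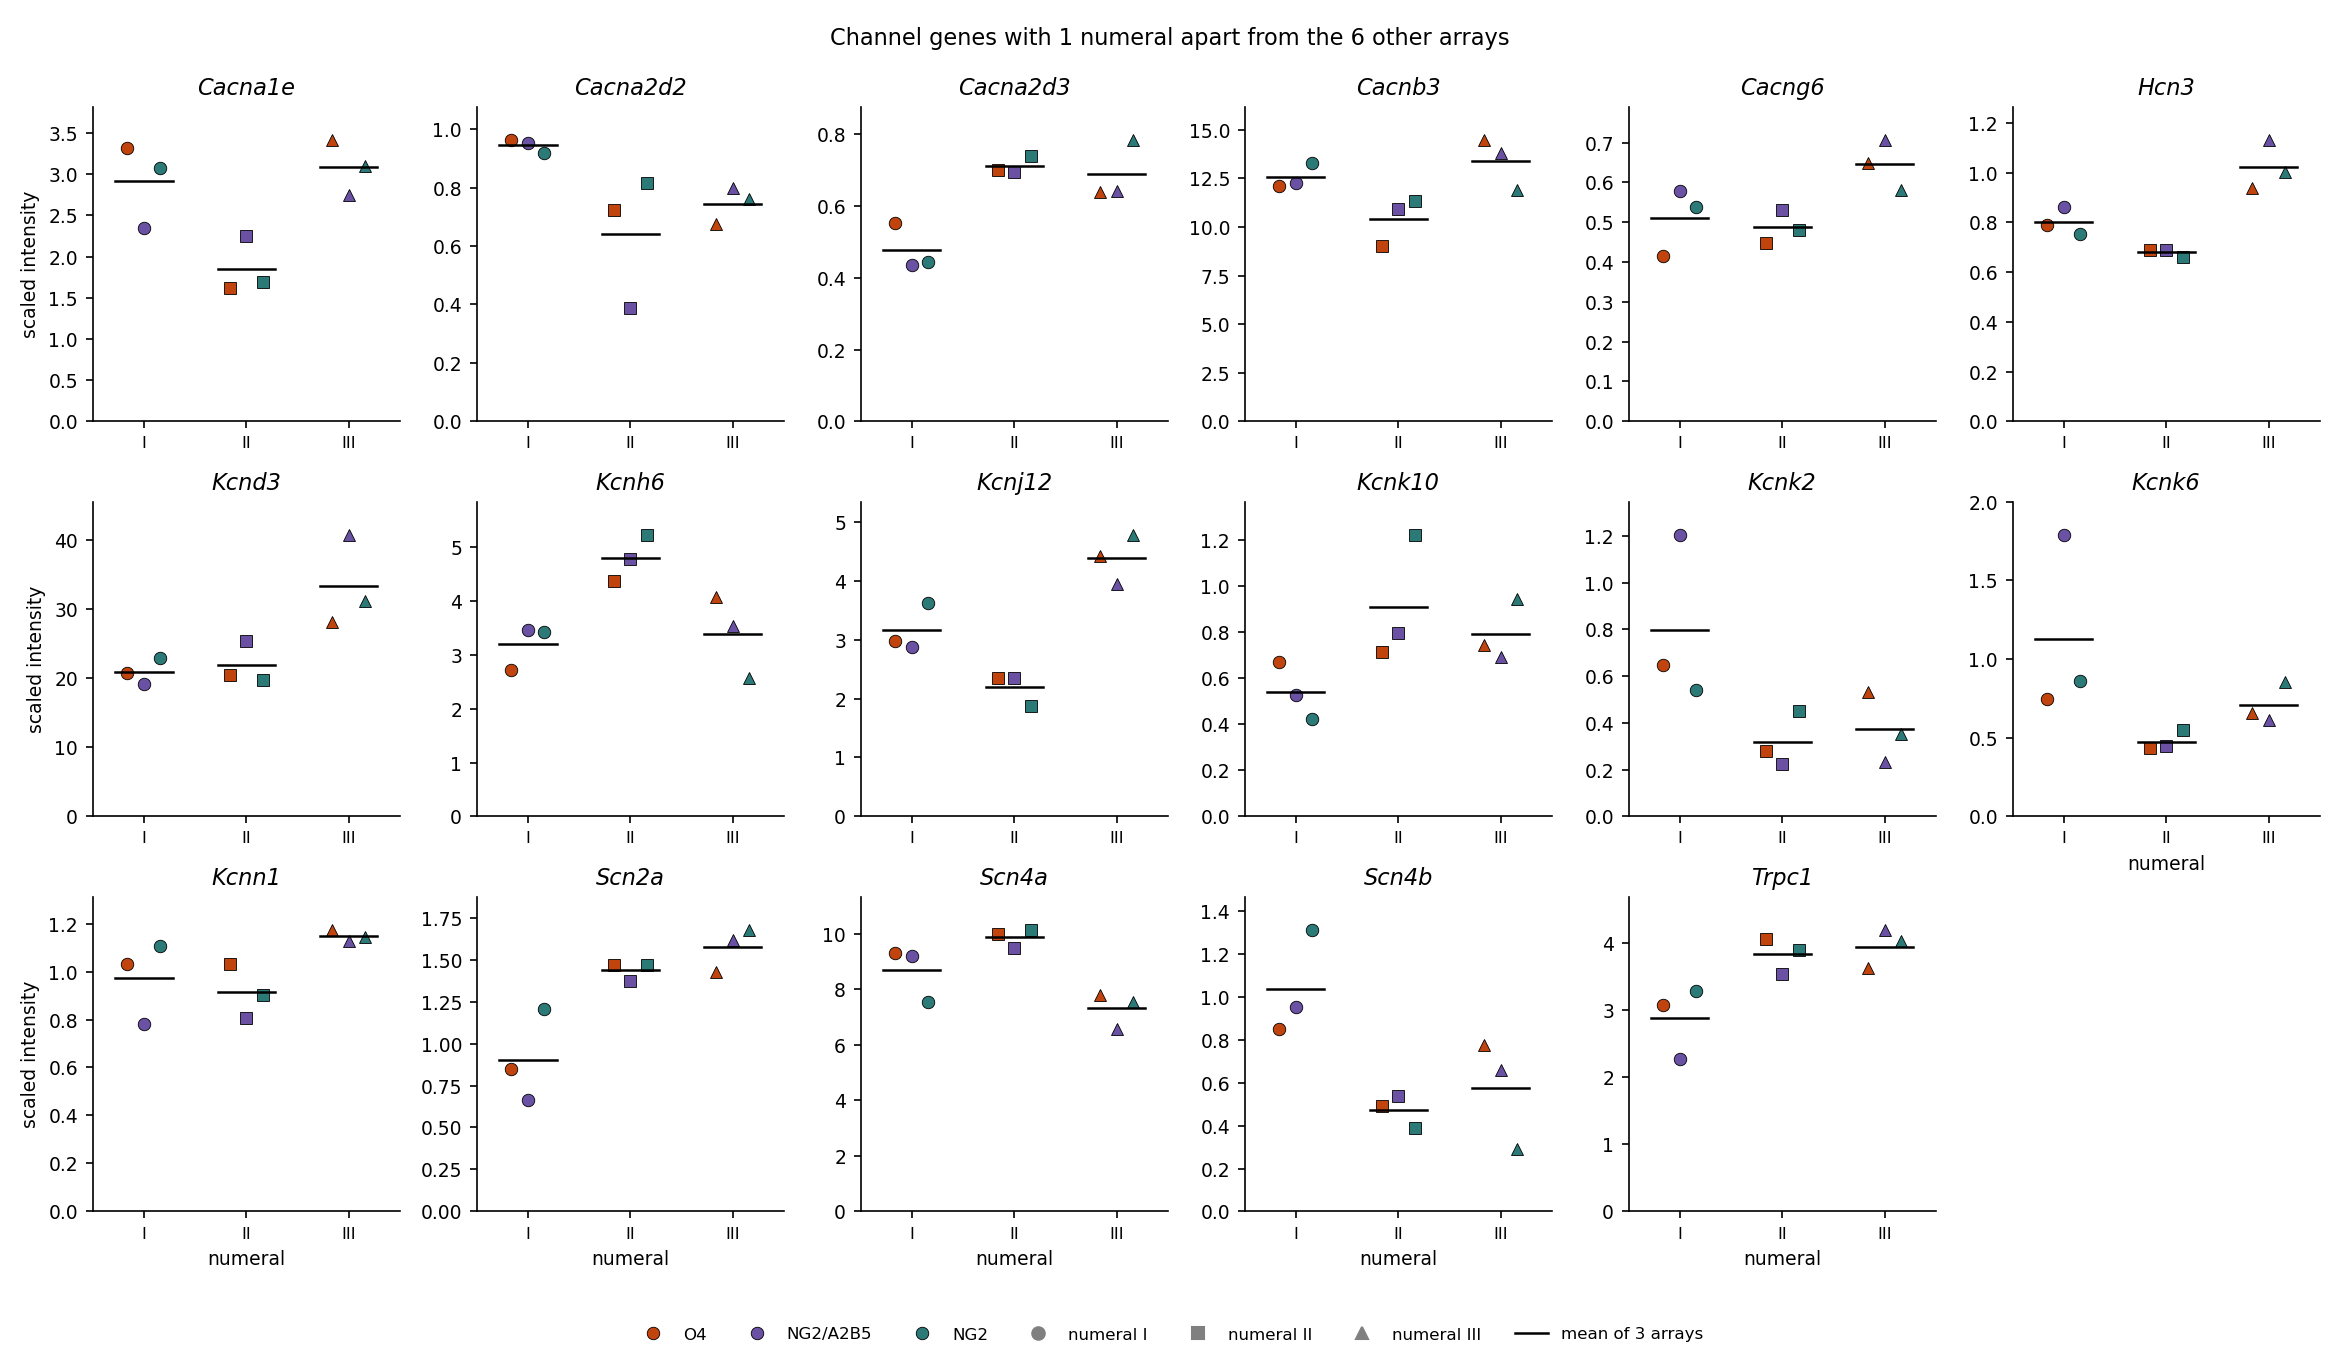
Scaled intensity (y axis, from 0) of the channel genes above the 25th percentile on all 9 arrays in which the 3 arrays of 1 numeral (x axis) lay outside the range of the other 6. Colours give the population and bars the mean of 3; in Kcnj12 the II arrays lie at 1.881 to 2.357 and the III arrays at 3.948 to 4.769.

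Members with several probes show how far a value depends on the probe. Of 48 such genes, 13 had more than 1 probe above the 25th percentile on all arrays. The probes of a gene gave the same sign of difference for 9 of the 13 in O4 minus NG2, 4 in O4 minus NG2/A2B5 and 10 in NG2/A2B5 minus NG2. The probe not used for Kcnq3, an M-current pore, read 3.92 on O4 array II and 0.1316 to 0.3399 on the others, while the probe used read 0.3024 on that array, inside its range elsewhere. Trpm7, Kcnk5 and Kcnk12 had 1 probe each. Both probes of Cacna2d1 gave the same sign in all 3 comparisons, those of Cacnb1 gave opposite signs in all 3, and those of Cacnb4 opposite signs in O4 minus NG2 and in O4 minus NG2/A2B5.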

How the data were processed

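RNA of 3 sorted rat progenitor populations, 3 arrays each, was extracted, amplified and biotin-labelled, and synthetic spike RNAs were added for normalization, per the labels' protocols. The authors deposited 1 scaled intensity per probe and array; no source used here names the scanner, software or scaling steps, and the dye field reads CY5, so a single colour was taken. Missing entries, coded -9999, were left out. Intensities at or below 0 were set to the array's smallest positive value before log2. Probes were named from the platform annotation: 16865 carried 1 symbol, 165 several and 18099 none. The probe with the highest mean log2 intensity stood for a gene. No values were rescaled.

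Populations were compared in limma 3.58.1 (R 4.3.3, statmod 1.5.0) with lmFit and eBayes over all genes and all 9 arrays, with Benjamini-Hochberg adjustment over all genes; a model with the numeral added gave the F test. The model was tested on simulated data. Named genes were every member above the 25th percentile on all arrays, by family, with values by array for members of known role in progenitors that were above it on all arrays of a population and for the 5 members with the smallest p in each comparison among those above it on all arrays of at least 1 compared group. Members with a population or numeral apart, Kcng2, Kcnj13 and Kcna4 in O4 minus NG2/A2B5, Kcng2 in NG2/A2B5 minus NG2, and Kcnq3's second probe, were named after their values were seen. Members and lists were chosen with earlier results of these data known. The numerals, from the sample titles, pair the arrays: over 8899 genes the correlations of same-numeral deviations were 0.259 to 0.615 in all 9 pairs, and those of different numerals -0.533 to 0.059. Alternatives were the numeral as a replicate block, trend and robust variances, quantile normalization, a common floor, a filter, other probe rules and leaving out each array. The number of arrays limits the precision. Figures used Python 3.11.15 and matplotlib 3.10.9.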

Additional observations from a re-analysis of the deposited data

How the results depend on the processing

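With 3 arrays a population and 6 residual degrees of freedom, small differences could not be separated from the spread. Dim probes set the largest log2 differences. In O4 minus NG2 these were Kcnj15 (3.52), Clcn7 (3.36) and Kcnd2 (-2.78). Each had an intensity below 0 that was replaced before log2, so these sizes rest on the replacement. The main model held no numeral term, so its spread, errors and intervals include the differences between numerals. Paired by numeral, with the replicate block fixed or random, 0 channel genes passed an adjusted p of 0.05 in any comparison, as without it, against at most 0.00822% of all genes. The fixed replicate block with trend and robust estimates gave 2 in O4 minus NG2 (Trpm7 and Cacnb4, 1.52% against 1.02% of all genes). That setting gave 0 in O4 minus NG2/A2B5, against 0.00822% of all genes, and 0 in NG2/A2B5 minus NG2, against 0.781% (95 genes). Leaving out each array in turn gave 0 to 0 called in every comparison, against at most 0.0329% of all genes, and 82 to 83 channel genes above the 25th percentile on all remaining arrays. The other settings also called 0 between populations, against at most 0.0164% of all genes. For the numeral F test, where 0 channel genes passed, trend and robust estimates gave 10 (7.58%, against 14.9% of all genes), the common floor 5 (3.97% against 6.77%), the filter on at least 3 arrays 1 (0.901% against 3.19%) and the mean of a gene's probes 1 (0.758% against 0.296%), against 0.674% of all genes without a change of setting; the cause was not tested. With the array's median in place of the 25th percentile, 38 of 132 genes were above on all arrays, by construction of the higher threshold. The median over channel genes in O4 minus NG2 ranged from 0.024 to 0.16. None of the 15 named differences changed sign under any setting; 284 of the recomputed values stayed on the same side of the threshold, the exception being Trpm7 under the block with trend and robust estimates.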
